A study of Rattus norvegicus with 6 samples.

Results

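The miRNAs described here come from the segment around miR-127 and miR-433 of the Dlk1-Dio3 imprinted domain. They were chosen by name, as the rows of the deposited count table with the stem miR-337, miR-540, miR-665, miR-431, miR-433, miR-127, miR-434, miR-136, miR-341 or miR-1188 and any strand suffix. This gave 17 of 650 listed mature miRNAs, from 10 hairpins. Small RNA was counted in the trigeminal ganglion, where the neurons that serve facial sensation have their somata. The CCI-ION group had loose ligatures around the left infraorbital nerve (chronic constriction injury, a model of facial neuropathic pain), and the sham group had that nerve exposed without ligation. Each group had 3 libraries of ipsilateral ganglia from Sprague-Dawley rats of 8 to 10 weeks, taken on day 14. The labels give no sex, and do not say whether a library is 1 animal or a pool, so the tests speak only of variation among libraries, which may be technical.

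At this locus the miRNAs are made from long noncoding transcripts of the maternally inherited chromosome, while protein-coding genes such as Dlk1, Rtl1 and Dio3 are expressed from the paternal one. A hairpin precursor is cut into a 5p and a 3p strand, and the strand kept in the silencing complex pairs with target RNAs through its seed, bases 2 to 8. In the RefSeq annotation of GRCr8 all 10 hairpins lie on the plus strand of chromosome 6, in the order miR-337, miR-540, miR-665, miR-431, miR-433, miR-127, miR-434, miR-136, miR-341 and miR-1188. A run of 5 of them, miR-431 to miR-136, lies inside Rtl1, which is on the minus strand. These antisense miRNAs match Rtl1 RNA perfectly, and in mice they are known to direct its cleavage. miR-431 is known in mouse sensory neurons for promoting axon growth after injury.

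The sequences below are those on which the results turn: the most abundant member, the 6 members called in a fit that uses the replicate numbers, and miR-434-3p with an RNA listed on its opposite strand. They are from the deposited table, 5′ to 3′ with T for U, and capitals mark the seed.
miR-127-3p: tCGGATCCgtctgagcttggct
miR-433-3p: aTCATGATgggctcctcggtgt
miR-540-3p: aGGTCAGAggtcgatcctgggc
miR-341: tCGGTCGAtcggtcggtcggt
miR-1188-5p: tGGTGTGAggttgggccagga
miR-136-3p: cATCATCGtctcaaatgagtct
miR-434-5p: aGCTCGACtcatggtttgaacca
miR-434-3p: tTTGAACCatcactcgactcct
miR-3543: cAGGAGTCgagtgatggttcaaa

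Each of the 17 members had a seed of its own: 17 distinct seeds were found, and 0 other listed miRNAs shared one of them. No member had a near copy in the table, taken as at most 2 differing bases over at least 19 compared from the first base. RefSeq listed 15 of the 17, and all 15 were identical to the deposited sequence. The other two were miR-127-5p and miR-136-5p. Only the miR-434 strands had a long stretch in common, the 9 bases tttgaacca, which ended the 5p strand and began the 3p strand. miR-341 repeats the tetranucleotide cggt along most of its length.

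Total miRNA counts were 6420434 to 11014970 in CCI-ION libraries and 10084327 to 12560545 in sham libraries, so 3 counts equal 0.239 to 0.467 CPM (read count scaled to library size). Levels below are CPM scaled by TMM, a normalization that assumes most miRNAs do not change, and they are not scaled by length (the tested members are 21 to 23 bases long). The sensory neuron miRNAs miR-183, miR-182 and miR-96 summed to 34707 to 45644 CPM in CCI-ION and 35141 to 44703 CPM in sham libraries, so these markers of the labelled tissue were abundant. Of the total that underlies the deposited RPM, 49.0% ± 5.87 were miRNA counts in CCI-ION and 61.8% ± 8.25 in sham (SD, n = 3 each). A change given relative to other miRNAs can therefore differ from one relative to that total, whose content is not stated. In bulk tissue, fewer cells of a type and less RNA per cell cannot be told apart. Libraries with the same replicate number deviated together across miRNAs in these same data, though no label says what the number stands for. The edgeR fit with that number as a block is therefore given beside the fit with group alone wherever it changes a call. Its p-values hold only if the numbers do pair the libraries. They also rest on variances drawn strongly to a common one (54.5 median prior degrees of freedom, and 3.3 with group alone).

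miR-127-3p dominated the set. It held 80.3% of all member counts, and with both strands of miR-434 and miR-433-3p it set most of the total. rno-miR-127-3p (rno marks the rat sequence) measured 20754, 24484 and 26681 CPM in CCI-ION libraries 1 to 3, against 21182, 29936 and 31175 CPM in sham libraries 1 to 3. The groups overlapped, with both libraries numbered 1 at the low end. The order after it was miR-434-5p, miR-434-3p and miR-433-3p, and each step in this order held in 6 of 6 libraries with no overlap in range. Next came a band of miR-136-3p, miR-127-5p, miR-337-5p, miR-341, miR-540-3p and miR-431, with means of 99.9 to 195 CPM, in which each neighbour overlapped the next. miR-136-5p, miR-433-5p, miR-1188-5p, miR-337-3p, miR-665 and miR-540-5p lay below, down to a mean of 2.03 CPM. miR-1188-3p had 1 count in sham library 1 and 0 in every other library, and it was the only member left out by the filter on low counts.

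**Figure D1:**
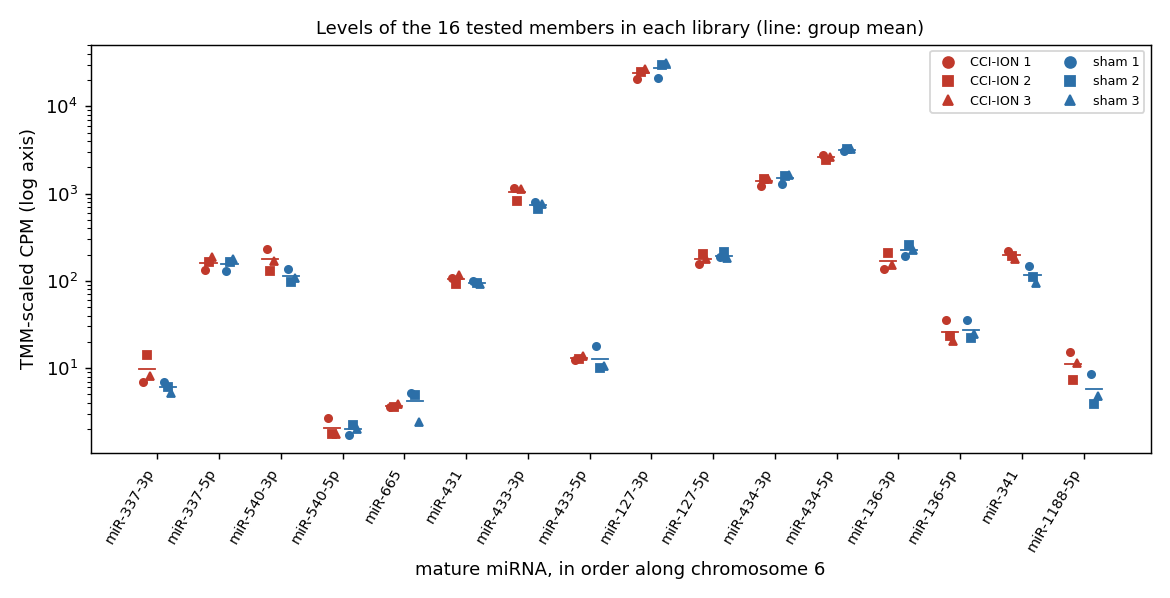
TMM-scaled CPM (log axis) of the 16 tested members in each library, with CCI-ION left of sham, in order along chromosome 6; lines are group means and symbols give the replicate number. miR-127-3p stands above all others at 20754 to 31175 CPM, and the weakest strand, miR-540-5p, lies near 2 CPM.

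For the set as a whole, the part of the miRNA pool overlapped between the groups. The 17 members held 2.84%, 2.93% and 3.18% of miRNA counts in CCI-ION libraries 1 to 3, against 2.89%, 3.53% and 3.72% in sham libraries 1 to 3. The means were 2.98% ± 0.177 in CCI-ION and 3.38% ± 0.435 in sham (SD, n = 3 each, exact permutation p = 0.3, two-sided; the design cannot give less than 0.1). Dropping 1 library at a time gave differences down to -0.643 percentage points when sham library 1 was dropped (exact permutation p = 0.1, the smallest possible) and up to -0.227 when sham library 3 was. As a share of the total that underlies the RPM, the members were 1.47% ± 0.266 in CCI-ION and 2.11% ± 0.525 in sham (SD, n = 3 each, exact permutation p = 0.2). The share was lower in CCI-ION in 3 of 3 pairs of libraries with the same number (exact sign-flip p = 0.25, the smallest possible). Without miR-127-3p the share was 0.604% ± 0.0455 in CCI-ION and 0.639% ± 0.0123 in sham (SD, n = 3 each, exact permutation p = 0.4). Its difference was -0.058 percentage points when CCI-ION library 1 was dropped and -0.0125 when CCI-ION library 2 was, the extremes over the 6 libraries. The denominator mattered for this share. Against the total that underlies the RPM it was 0.296% ± 0.0395 in CCI-ION and 0.394% ± 0.0491 in sham (SD, n = 3 each, exact permutation p = 0.1, the smallest possible). Against miRNA counts without the 10 most abundant miRNAs it was 1.78% ± 0.0667 in CCI-ION and 1.87% ± 0.0188 in sham (SD, n = 3 each, exact permutation p = 0.1).

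Whether nerve injury changed single members was asked by comparing CCI-ION with sham. With group alone, edgeR called 0 of 16 tested members at an adjusted p under 0.05, where 0.648% of all 463 tested miRNAs were called in either direction. At an unadjusted p under 0.05 there were 5 members, beside 9.94% of all tested miRNAs. DESeq2 called 1 member, miR-341 (adjusted p = 0.028, beside 2.81% of all tested miRNAs), and limma-voom called 0, beside 0.648%. With the replicate block edgeR called 6 members: miR-1188-5p, miR-341, miR-540-3p and miR-433-3p rose, and miR-136-3p and miR-434-5p fell. Those are 4 of 16 higher, where 6.05% of all tested miRNAs were called higher, and 2 of 16 lower, where 5.62% were called lower. DESeq2 with the block called the same 6 (9.5% of all tested miRNAs), and limma-voom with the block called 5 of them (8.42% of all), without miR-434-5p (adjusted p = 0.112). When both libraries numbered 3 were left out, the block called 0 members, beside 1.07% of all tested miRNAs. Leaving out number 1 or number 2 left 4 of these 6 in each case, beside 9.93% and 6.68% of all, and leaving out number 1 added miR-337-3p. With upper quartile factors and the block, chosen after seeing the data, 6 members were called, beside 13% of all. They were 5 of the same 6 and miR-337-3p (edgeR adjusted p = 0.0297), without miR-434-5p (edgeR adjusted p = 0.219).

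Among the members that rose, miR-341 and miR-1188-5p are neighbours at the far end of the segment, beyond Rtl1. rno-miR-341 measured 222, 195 and 176 CPM in CCI-ION libraries 1 to 3, against 147, 110.03 and 94.7 CPM in sham libraries 1 to 3. Every CCI-ION library lay above every sham library, and the ratio within pairs was 1.51, 1.77 and 1.85. Its log2 fold change was 0.77 ± 0.11 (SE) with the block (edgeR adjusted p = 3.47e-07) and 0.75 ± 0.20 with group alone (edgeR adjusted p = 0.316). Leaving out the pair numbered 3 gave 0.70 ± 0.16 (edgeR adjusted p = 0.0751). With all pairs, limma-voom with the block gave an adjusted p of 0.00552, far larger than that of edgeR.

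rno-miR-1188-5p was far scarcer, at 176, 45 and 84 counts in CCI-ION libraries and 115, 38 and 48 counts in sham libraries. This equals 15.2, 7.24 and 11.3 CPM in CCI-ION, against 8.64, 3.87 and 4.82 CPM in sham. The groups overlapped because CCI-ION library 2 lay below sham library 1, yet within pairs the ratio was 1.76, 1.87 and 2.35. With the block its log2 fold change was 0.97 ± 0.23 (edgeR adjusted p = 0.00146), and with group alone 0.96 ± 0.39 (edgeR adjusted p = 0.482). Without the pair numbered 2 (edgeR adjusted p = 0.0644) or the pair numbered 3 (0.181) it was not called.

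miR-540 lies toward the other end of the segment, between miR-337 and miR-665. rno-miR-540-3p measured 229, 129 and 169 CPM in CCI-ION libraries 1 to 3, against 135.8, 95.7 and 108 CPM in sham libraries 1 to 3. The groups overlapped only through CCI-ION library 2, which lay below sham library 1, and all 3 pairs were higher in CCI-ION. Its log2 fold change was 0.61 ± 0.11 with the block (edgeR adjusted p = 4.7e-05) and 0.64 ± 0.24 with group alone (edgeR adjusted p = 0.448).

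miR-433-3p, from a hairpin in the middle of the segment and antisense to Rtl1, was the most abundant member that rose. rno-miR-433-3p measured 1146, 818 and 1138 CPM in CCI-ION libraries 1 to 3, against 800, 669 and 762 CPM in sham libraries 1 to 3. The groups did not overlap, though CCI-ION library 2 was close to sham library 1. Its log2 fold change was 0.46 ± 0.10 with the block (edgeR adjusted p = 0.000859) and 0.48 ± 0.17 with group alone (edgeR adjusted p = 0.432). Without the pair numbered 3 the adjusted p with the block was 0.123 for miR-540-3p and 0.321 for miR-433-3p by edgeR.

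The members that fell come from adjacent hairpins within Rtl1. rno-miR-136-3p measured 137, 210.4 and 153.6 CPM in CCI-ION libraries 1 to 3, against 190.4, 254 and 227 CPM in sham libraries 1 to 3. The groups overlapped, since CCI-ION library 2 exceeded sham library 1, and the ratio within pairs was 0.719, 0.828 and 0.677. Its log2 fold change was -0.44 ± 0.11 with the block (edgeR adjusted p = 0.00306) and -0.42 ± 0.21 with group alone (edgeR adjusted p = 0.543). Its call was also lost without the pair numbered 1 (edgeR adjusted p = 0.0504) or the pair numbered 3 (0.375).

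rno-miR-434-5p measured 2745, 2452 and 2606 CPM in CCI-ION libraries 1 to 3, against 3068, 3221 and 3209 CPM in sham libraries 1 to 3. Every CCI-ION library lay below every sham library, but the change was small. Its log2 fold change was -0.28 ± 0.10 with the block (edgeR adjusted p = 0.0478) and -0.28 ± 0.12 with group alone (edgeR adjusted p = 0.482). The block did not call it when any of the 3 pairs was left out (edgeR adjusted p 0.0607 without number 1, 0.219 without number 2 and 0.471 without number 3).

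**Figure D2:**
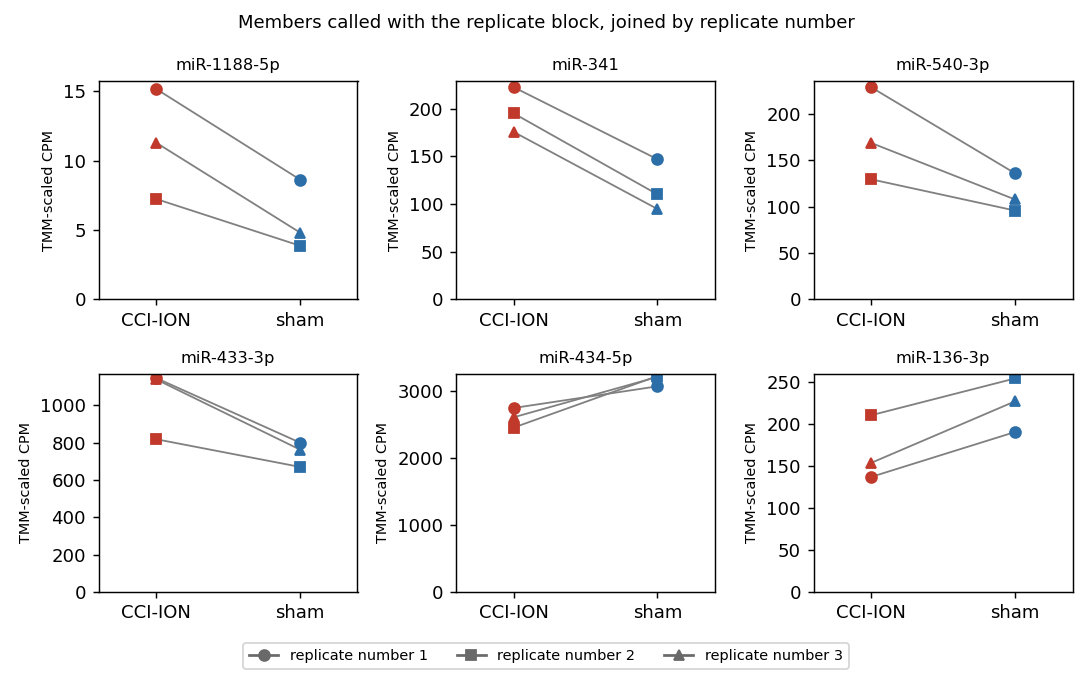
TMM-scaled CPM of the 6 members called with the replicate block, CCI-ION at the left and sham at the right of each panel, with lines joining libraries of the same replicate number and axes starting at 0. All 3 lines run in one direction in every panel, while the groups overlap for miR-1188-5p, miR-540-3p and miR-136-3p.

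The other 10 tested members were not called with the block. For miR-127-3p the log2 fold change with the block was -0.18 ± 0.09 (edgeR adjusted p = 0.242), and it was lower in CCI-ION in 3 of 3 pairs. With group alone its 95% interval ran from -0.62 to 0.23. miR-337-3p measured 6.98, 14.0 and 8.21 CPM in CCI-ION libraries 1 to 3, against 6.91, 6.01 and 5.22 CPM in sham libraries 1 to 3. Its groups did not overlap, but the pair numbered 1 was nearly equal, and its log2 fold change with the block was 0.61 ± 0.24 (edgeR adjusted p = 0.0966). miR-431 averaged 105 ± 11.4 CPM in CCI-ION and 94.5 ± 3.66 CPM in sham (SD, n = 3 each), a log2 fold change with the block of 0.15 ± 0.12 with a 95% interval of -0.09 to 0.39. miR-665 and miR-540-5p, at a few CPM, had 95% intervals with the block of -0.75 to 0.42 and -0.59 to 0.78. Changes in either direction within these bounds were therefore not excluded for them.

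In total 3 of 16 tested members lay wholly above sham in CCI-ION (miR-341, miR-433-3p and miR-337-3p), and 1 lay wholly below (miR-434-5p). Over all tested miRNAs 6.7% lay wholly above and 7.13% wholly below. The median log2 fold change of the tested members with the block was 0.04, with 9 positive and 7 negative, and that of all tested miRNAs was 0.00025. By position, all 6 strands of the 3 adjacent hairpins miR-127, miR-434 and miR-136 had negative values. All others except miR-665 had positive ones. This arrangement along the chromosome was seen after the values were known, and it carries no test. It also depends on the scaling. With the block and each library set against the total that underlies its RPM, 5 members were positive and 11 negative. On that scale miR-337-5p, miR-540-5p, miR-431 and miR-433-5p were negative too. miR-136-5p was positive when upper quartile factors or a GC correction were used with the block.

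**Figure D3:**
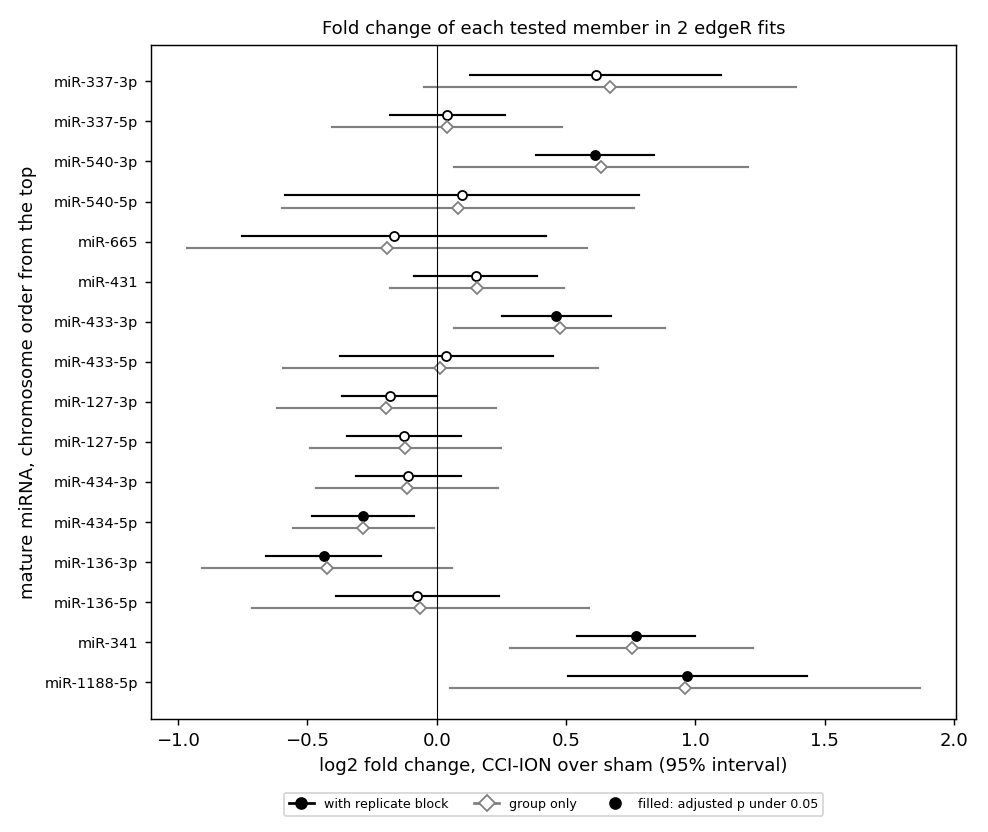
Log2 fold change of CCI-ION over sham with its 95% interval for each tested member, in chromosome order from the top, from the edgeR fit with the replicate block (black circles) and with group alone (grey diamonds); filled symbols have an adjusted p under 0.05. The estimates of both fits nearly coincide, from -0.44 for miR-136-3p to 0.97 for miR-1188-5p with the block, and only the block gives filled symbols.

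The scale matters for these values. With each library set against the total that underlies its RPM, and with the block, the median of all tested miRNAs was -0.345. On that scale miR-1188-5p (0.64 ± 0.25, edgeR adjusted p = 0.038) and miR-341 (0.42 ± 0.15, edgeR adjusted p = 0.031) were still called higher in CCI-ION, beside 1.3% of all tested miRNAs. miR-540-3p (0.27 ± 0.16, edgeR adjusted p = 0.178) and miR-433-3p (0.12 ± 0.16, edgeR adjusted p = 0.575) were not called. On the same scale 5 members were called lower, namely miR-127-3p, both miR-434 strands, miR-127-5p and miR-136-3p, beside 32.8% of all tested miRNAs called lower.

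Both strands of 6 hairpins passed the filter on low counts and were compared within a library, a ratio that no scaling can change. All ratios below were taken with 0.5 added to each count. The miR-540 ratio is imprecise, since miR-540-5p had only 31, 11 and 13 counts in CCI-ION libraries 1 to 3. In sham libraries 1 to 3 it had 23, 22 and 20 counts. The 3p strand led by far in miR-127, with 120 to 151 reads per 5p read in CCI-ION and 114 to 169 in sham. It also led in miR-433 (64.0 to 92.6 in CCI-ION, 44.8 to 72.7 in sham) and in miR-540 (69.96 to 92.9 in CCI-ION, 41.8 to 77.0 in sham). miR-136 leaned less strongly to its 3p strand, with 3.88 to 9.06 reads per 5p read in CCI-ION and 5.29 to 11.5 in sham. The 5p strand led in miR-337 and miR-434. For miR-434 there were 0.448, 0.593 and 0.556 3p reads per 5p read in CCI-ION libraries 1 to 3, against 0.416, 0.489 and 0.505 in sham libraries 1 to 3.

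The groups overlapped in every strand ratio. The difference in mean log2 ratio was 0.59 for miR-337 (-4.09 ± 0.487 in CCI-ION and -4.68 ± 0.44 in sham, SD, n = 3 each, exact permutation p = 0.3, 0.45 adjusted over 6 hairpins). For miR-540 it was 0.57 (6.35 ± 0.207 in CCI-ION and 5.79 ± 0.445 in sham, SD, n = 3 each, exact permutation p = 0.2, adjusted 0.45), with the ratio higher in CCI-ION in 3 of 3 pairs. With 5 rather than 0.5 added to each count, the miR-540 difference was 0.47. The other hairpins had exact permutation p-values of 0.3 to 0.8, and adjusted ones of 0.45 to 0.8. Single libraries set much of these sizes. Dropping CCI-ION library 2 gave a difference of 0.314 for miR-337, and dropping sham library 1 gave 0.823, with the other drops in between. For miR-540 the lowest value was 0.366 when sham library 2 was dropped, and the highest 0.806 when sham library 1 was dropped (exact permutation p = 0.1, the smallest possible). The miR-433 difference was lowest at 0.178 when sham library 1 was dropped and highest at 0.540 when CCI-ION library 2 was dropped. That of miR-434 was 0.0886 with sham library 1 dropped and 0.294 with CCI-ION library 1 dropped (exact permutation p = 0.1), its lowest and highest values. Within pairs the miR-434 ratio was higher in CCI-ION in 3 of 3 and the miR-136 ratio lower in 3 of 3 (exact sign-flip p = 0.25 each, the smallest possible). With the block and TMM scaling, miR-433-3p, miR-540-3p, miR-136-3p and miR-434-5p were thus called without their partner strands, while a difference between partners was not shown.

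**Figure D4:**
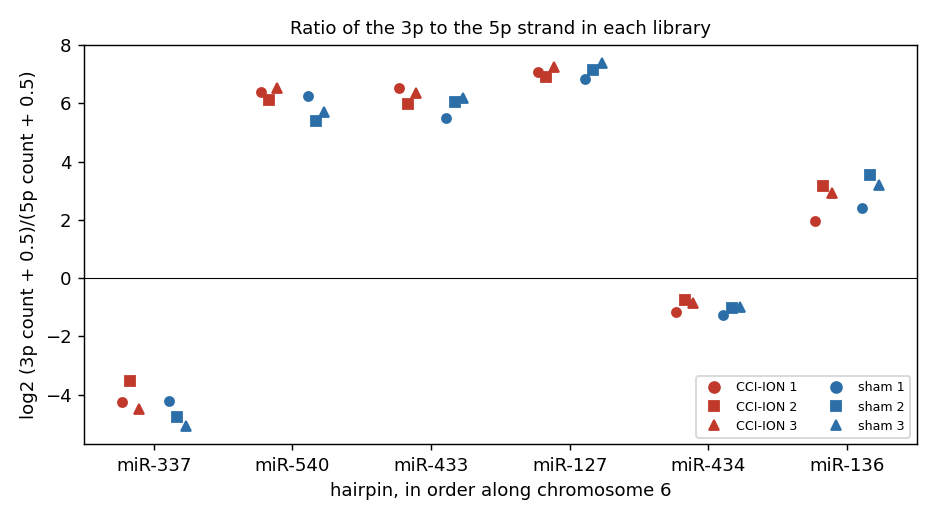
Log2 ratio of the 3p to the 5p read count (0.5 added to each) per library for the 6 hairpins with both strands tested, CCI-ION left of sham; symbols give the replicate number. The ratio is above 0 for miR-540, miR-433, miR-127 and miR-136 and below 0 for miR-337 and miR-434 in all 6 libraries, and the groups overlap in each hairpin.

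Reads were also listed for the opposite strand of miR-434. miR-3543, annotated on the minus strand like Rtl1, contains the exact reverse complement of all 22 bases of miR-434-3p. It had 5728, 3822 and 4595 counts in CCI-ION libraries 1 to 3, against 7052, 7306 and 6532 counts in sham libraries 1 to 3. This was 40.1%, 42.3% and 42.7% of the miR-434-3p count in CCI-ION, against 41.5%, 47.2% and 40.4% in sham, so the proportion varied little. Its log2 fold change with the block was -0.15 ± 0.10 (edgeR adjusted p = 0.405), beside -0.11 ± 0.10 for miR-434-3p (edgeR adjusted p = 0.573). With the block and RPM totals both were called lower, beside 32.8% of all tested miRNAs. The values there were -0.50 ± 0.16 for miR-3543 (edgeR adjusted p = 0.0159) and -0.46 ± 0.16 for miR-434-3p (edgeR adjusted p = 0.0265). Whether the authors counted reads by strand is not stated in the sources used here, so reads of the 2 strands may not be fully told apart. miR-434-3p and miR-3543 are therefore uncertain.

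Base composition varied with the values. The 4 members that rose with the block had a GC content of 54.5% to 66.7%, and the 2 that fell had 47.8% and 40.9%. The 10 other tested members spanned 34.8% to 59.1% with a median of 54.3%, and the median of all tested miRNAs was 47.8%. Across the 16 tested members GC content and the log2 fold change with the block correlated at r = 0.46, against r = 0.17 across all 463 tested miRNAs (a description, since miRNAs of the same libraries are not independent). The correlation of GC content with each library's deviation from the mean ranged from -0.384 in CCI-ION library 2 to 0.438 in CCI-ION library 1. With a GC correction per library added to the block, chosen after seeing the data, edgeR still called 5 of the 6, beside 10.2% of all tested miRNAs: miR-1188-5p (0.86 ± 0.20, adjusted p = 0.0154), miR-341 (0.63 ± 0.10, adjusted p = 0.00219), miR-540-3p (0.50 ± 0.09, adjusted p = 0.00372), miR-433-3p (0.46 ± 0.09, adjusted p = 0.00396) and miR-136-3p (-0.37 ± 0.09, adjusted p = 0.0197). miR-434-5p was not called (-0.25 ± 0.08, edgeR adjusted p = 0.0721).

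**Figure D5:**
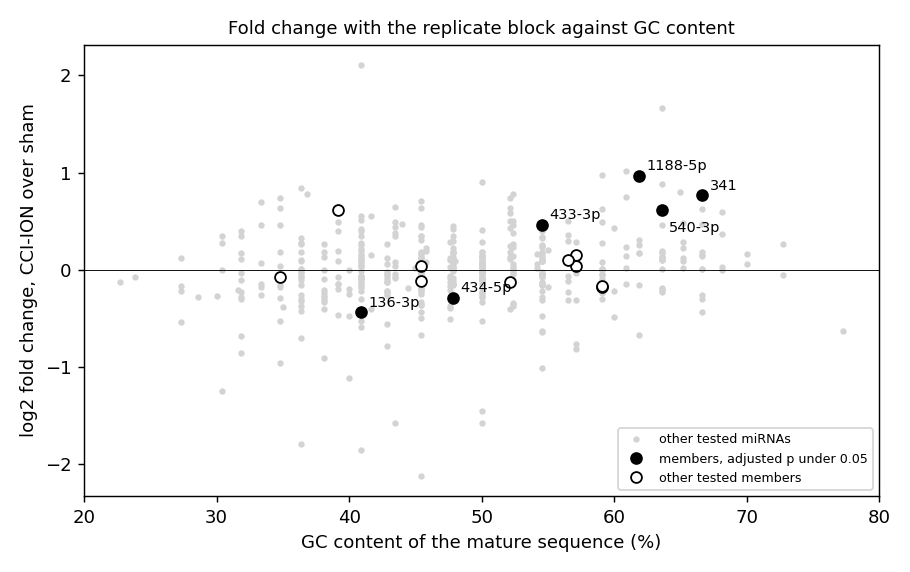
Log2 fold change of CCI-ION over sham with the replicate block against the GC content of the mature sequence, for the tested members (black, filled where the adjusted p is under 0.05) and all other tested miRNAs (grey). The 4 filled members above 0 lie at 54.5% GC or more and the 2 below 0 at 47.8% or less.

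The rest of the Dlk1-Dio3 miRNAs, 76 listed rows of which 60 were tested, were compared in the same fits. With group alone edgeR called 0 of them, beside 0.648% of all tested miRNAs, and 8 had an unadjusted p under 0.05, beside 9.94%. DESeq2 and limma-voom with group alone also called 0. With the block 9 of 60 were higher, beside 6.05% of all, and 1 was lower, beside 5.62%. Their median log2 fold change with the block was 0.05. The 3 most abundant were miR-379-5p, miR-541-5p and miR-300-3p. miR-379-5p, of the large cluster downstream, averaged 3500 ± 423 CPM in CCI-ION and 3253 ± 245 CPM in sham (SD, n = 3 each) and was not called (edgeR adjusted p with the block 0.595). miR-541-5p rose with the block (0.47 ± 0.10, edgeR adjusted p = 0.000503; 0.316 with group alone), and its groups did not overlap. Without the pair numbered 3 it was not called (edgeR adjusted p = 0.181), nor with the block and RPM totals, where its log2 fold change was 0.13 ± 0.16 (edgeR adjusted p = 0.535).

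The summed count of the 17 members was 1.78, 2.00 and 1.96 times that of these other 76 rows in CCI-ION libraries 1 to 3, against 1.98, 2.49 and 2.66 times in sham libraries 1 to 3. The groups overlapped between CCI-ION library 2 and sham library 1, and the log2 ratio was 0.93 ± 0.0899 in CCI-ION and 1.24 ± 0.221 in sham (SD, n = 3 each, exact permutation p = 0.2). It was lower in CCI-ION in 3 of 3 pairs (exact sign-flip p = 0.25). Without miR-127-3p the log2 ratio was -1.37 ± 0.0701 in CCI-ION and -1.16 ± 0.0326 in sham (SD, n = 3 each, exact permutation p = 0.1, the smallest possible).

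The miRNA outside the set whose log2 CPM followed miR-127-3p most closely over the 6 libraries was miR-151-5p (r = 0.99, at 1.30 CPM in CCI-ION and 1.46 CPM in sham), then miR-125b-2-3p (r = 0.96) and miR-299a-5p (r = 0.94). Of these only miR-299a-5p is on the list of other Dlk1-Dio3 miRNAs, which holds 60 of the 463 tested miRNAs. The mean pattern of the tested members was followed most closely by miR-487b-3p (r = 0.96), miR-541-5p (r = 0.93) and miR-3072 (r = 0.92), all from that list. For each of them every CCI-ION library lay above every sham library. The correlations describe 6 libraries that share the contrast and the replicate numbers.

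Levels of cell type markers are given for comparison, and only the leukocyte sum did not overlap between the groups. With the block, 6.05% of all tested miRNAs were called higher and 5.62% lower, and the marker counts below stand beside these shares. Leukocyte miRNAs (miR-142, miR-223, miR-150 and miR-155, 8 listed strands) summed to 297 to 338 CPM in CCI-ION and 229 to 274 CPM in sham with no overlap, and with the block 2 of 6 tested rose. Of the neuronal markers 2 of 4 tested fell with the block, as did 2 of 6 skeletal muscle markers, with summed levels of 3345 to 8424 CPM in CCI-ION and 5202 to 10680 CPM in sham for muscle. The sums were 9727 to 14672 CPM in CCI-ION and 11506 to 15019 CPM in sham for the neuronal list. The myelinating glia list (4928 to 5985 CPM in CCI-ION, 5758 to 6715 CPM in sham) and the fibroblast list (5583 to 10465 CPM in CCI-ION, 5457 to 7212 CPM in sham) had 1 member each that rose. The sensory neuron list (0 of 4 tested) and the erythroid and endothelial lists had none called. No listed marker was at 0 in all libraries, and the part of these cells in the members' changes was not tested.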

How the data were processed

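The authors deposited raw counts for 650 mature miRNAs and, per library, RPM values that equal those counts times 1 constant (whole reads recovered from 100% of values within 0.01 read). What the total behind the RPM counts is not stated. cutadapt 1.14, Bowtie 1.1.1 and the build rn6 were used, per the submitters' processing notes. Neither the counter of reads nor the miRNA annotation is named there. Groups and replicate numbers come from the sample titles. Members and lists were chosen with earlier results of these data known.

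Counts were tested with the edgeR 4.0.16 quasi-likelihood test in R 4.3.3 (TMM, filterByExpr, robust), with Benjamini-Hochberg adjustment over all 463 tested miRNAs. DESeq2 1.42.0 and limma 3.58.1 (limma-voom) were alternatives. Fold changes are CCI-ION over sham. Their SE was derived from the fold change and the edgeR test statistic, and the 95% intervals were built from that SE. Shares and ratios were tested with two-sided exact permutation tests over libraries. Counts carry no molecular identifiers, so depth limits cover counting error only. The procedure was also run on simulated data, with larger changes than those estimated for the members with the block. For the fit with the block, replicate effects were built in. Those runs do not bear on whether the calls given here are right.

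Replicate numbers 1 to 3 occur in both groups. Deviations from group means in log2 CPM (prior count 2) correlated at 0.664, 0.591 and 0.457 for the numbers 1, 2 and 3, and at -0.614 to 0.166 for other combinations, so the numbers were taken to pair the libraries. This rests only on the same data that the block is then used to test. Deviations sum to 0 within a group, so these correlations depend on one another. No source used here says what a number stands for. With the block, each variance is drawn more strongly to a common one (54.5 median prior degrees of freedom, and 3.3 with group alone). Other alternatives were scaling, filter, GC offsets (loess span 0.75) and leaving out libraries. All tested members, the 3 most abundant of the other Dlk1-Dio3 miRNAs and the 3 most similar miRNAs are named by rule, and miR-3543 was chosen after its values were seen.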

Additional observations from a re-analysis of the deposited data

How the results depend on the processing

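The count of called members, 0 with group alone, was also 0 under DESeq2 size factors, upper quartile factors, scaling to the totals that underlie the RPM, no filter, limma-voom, GC correction and when any 1 library was left out. It was 1 with DESeq2. With the replicate block it was 6 by edgeR (4 higher and 2 lower, beside 6.05% higher and 5.62% lower of all tested miRNAs), 6 by DESeq2 (9.5% of all), 5 by limma-voom (8.42%), 5 with GC correction (10.2%) and 6 with upper quartile factors (13%). It was 7 when scaled to RPM totals, of which 2 were higher, beside 1.3% of all, and 5 were lower, beside 32.8%. With 1 pair left out it was 0 to 5 (5 without number 1, beside 9.93%, 4 without number 2, beside 6.68%, and 0 without number 3, beside 1.07%). Beside the same shares, the other Dlk1-Dio3 miRNAs gave 0 with group alone and with any 1 library left out, and with the replicate block 10 by edgeR, 7 by DESeq2, 8 by limma-voom, 15 when scaled to RPM totals (1 higher and 14 lower), 7 with GC correction, 11 with upper quartile factors and 0 to 7 with 1 pair left out (7 without number 1, 5 without number 2). The 6 members called with the block kept their direction in all 22 other fits. Those fits use the same libraries or a part of them, and the 6 were picked by their values there. The shared direction is therefore no independent support. The cause of these differences was not tested.

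Uncalled members with values near 0 changed sign. When scaled to RPM totals, without and with the replicate block, miR-337-5p was at -0.31 and -0.30, miR-540-5p at -0.27 and -0.24, miR-431 at -0.18 and -0.19, and miR-433-5p at -0.30 and -0.30. miR-433-5p was at -0.014 without a filter and -0.015 in limma-voom with the replicate block. miR-136-5p was at 0.036 with upper quartile factors, 0.0599 with GC correction, and with the replicate block at 0.029 with GC correction and 0.017 with upper quartile factors. With 1 library left out the values ranged from -0.0845 to 0.158 for miR-337-5p, -0.17 to 0.20 for miR-540-5p, -0.46 to 0.0038 for miR-665, -0.14 to 0.34 for miR-433-5p and -0.35 to 0.18 for miR-136-5p. With the replicate block and 1 pair left out they ranged from -0.27 to 0.28 for miR-540-5p, -0.521 to 0.0787 for miR-665, -0.131 to 0.37 for miR-433-5p (-0.0934 without number 2) and -0.134 to 0.0122 for miR-136-5p. The difference in log2 strand ratio ranged from -0.199 to 0.0808 for miR-127 and -0.69 to 0.0027 for miR-136 with 1 library left out, and no other ratio or share changed sign under its alternatives.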

Other observations

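The hairpin of miR-337 also has an RNA listed on its opposite strand. miR-3544 contains the reverse complement of 18 bases of miR-337-5p. It had 10, 2 and 5 counts in CCI-ION libraries 1 to 3, against 11, 9 and 4 counts in sham libraries 1 to 3, and it did not pass the filter on low counts. miR-337-5p itself averaged 161 ± 26.0 CPM in CCI-ION and 157 ± 25.6 CPM in sham (SD, n = 3 each).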
